A study of Carassius auratus with 6 samples.

Results

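The DNA replication machinery of carp skin was taken as every row of the deposited gene table whose pathway annotation names DNA replication, which gave 135 of 83088 gene rows. The product name of each row placed it in a complex: 22 rows in the MCM helicase, 27 in the DNA polymerases and primase, 14 in replication factor C (RFC), 6 in replication protein A (RPA) and 66 among the others. The others were 3 rows for the sliding clamp PCNA, 4 for flap endonuclease 1, 4 for DNA ligase 1, 11 for ribonuclease H1 and H2 subunits, 4 for mitochondrial single-stranded DNA-binding protein, 2 for the helicase-nuclease DNA2 and 38 with another product name. Those 38 go against the label, since their products, such as RUFY2 and RUFY3, THEMIS2, PRKRIP1, THAP1, a CLPTM1-like protein or an uncharacterized protein, are not replication proteins by name.

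DNA replication starts when the ring-shaped MCM helicase, built from MCM2 to MCM7, is loaded on origins and later unwinds the DNA. DNA polymerase alpha with its primase lays down short primers, RFC opens the PCNA clamp around the DNA, polymerase epsilon extends mainly the leading strand and polymerase delta mainly the lagging strand, and RPA coats the exposed single strands. Primers are then removed by ribonuclease H, flap endonuclease 1 and DNA2, and DNA ligase 1 seals the nicks. Many of these transcripts are made mostly by dividing cells, and the epidermis of fish is a living layer that keeps renewing itself by division.

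Skin was sampled from golden-back crucian carp, a Carassius auratus form with golden and greenish grey body colour, and all fish were female and untreated as far as the labels say. There were 3 libraries of golden and 3 of greenish grey skin, numbered 1 to 3 in each colour, and the age and number of fish, which the study states for its small RNA libraries, are not stated for these mRNA libraries. The sources used here do not say whether libraries with one number came from the same fish, so p-values measure the spread between these libraries, which may be technical. The comparison of both colours asks which transcripts go with skin colour. The study places the golden colour in regions along the back of the fish, so colour and body site cannot be told apart here.

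Total counts were 51493103 to 67595616 per library, and 41685 to 44553 genes had a count. Expression is given as FPKM, which puts a gene's fragments on a scale of its length and the depth of the library, and a gene was tested where its mean over the 6 libraries was at least 1 FPKM, which 26421 genes reached. Of 94 epidermis marker genes (keratins, desmosome and epithelial adhesion genes), 50 had counts in every library, while 13 keratin genes had none in any. The same held for 120 of 181 muscle genes, so presence in every library does not tell skin from muscle. Tissue make-up differed between libraries within each colour. Muscle genes made up 19.5%, 9.88% and 5.22% of all counts in golden libraries 1, 2 and 3 and 12.4%, 4.6% and 5.12% in greenish grey libraries 1, 2 and 3. Epidermis genes ran the other way, with 0.442%, 1.57% and 2.77% in golden and 0.866%, 2.38% and 1.99% in greenish grey. In bulk tissue, fewer cells of a type and less RNA per cell cannot be told apart.

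Of the 135 rows, 119 had a count in at least 1 library and 86 were tested. Testable were 17 MCM, 23 polymerase, 12 RFC, 6 RPA and 28 other genes, the last group including 10 of the 38 rows with another product name. All 86 are called replication genes below, these 10 included. Mean levels of the tested genes ran from 1.09 to 31.5 FPKM with a median of 3.80 FPKM. Named by product, the replication genes with the highest level per length were a PCNA copy (LOC113110310, 21.5 FPKM), a copy of polymerase delta subunit 4 (LOC113073280, 19.9 FPKM), rpa2 (14.3 FPKM) and an MCM7 copy (LOC113058110, 13.6 FPKM). The row at 31.5 FPKM was the gene for MYG1, which the pathway column included although its product name is that of a mitochondrial protein. The 49 rows below the minimum included both DNA2 genes and all 3 copies of the polymerase alpha catalytic subunit, whose best copy, LOC113042448, had a mean of 0.787 FPKM. The 3 rows annotated as maternal MCM3 or MCM6, forms known from eggs of the frog Xenopus, had no more than 4 counts in any library.

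None of the 86 tested replication genes differed between golden and greenish grey skin at an adjusted p under 0.05 (edgeR, Benjamini-Hochberg over 26421 genes, smallest adjusted p = 0.9998). No gene of the whole table did either (0%, edgeR, smallest adjusted p = 0.283), so this count does not set the replication genes apart. None of the 86 passed the 2-fold threshold at an unadjusted p under 0.05, which 2.77% of all tested genes passed. DESeq2 and limma also gave 0 replication genes at the adjusted threshold, where the whole table had 205 genes by DESeq2 and 0 by limma. With the replicate number as a block, 0 replication genes passed either threshold, against 0.00378% of all genes for the adjusted one and 5.05% for the 2-fold one. At an unadjusted p under 0.05 there was 1 replication gene, against 4.4% of all genes. Of the 86 genes, 41 had a higher estimate in golden and 45 in greenish grey, that is 47.7% higher in golden against 53.2% of all genes. The median log2 fold change of golden over greenish grey was -0.04, against 0.03 over all genes, and single genes ranged from -0.87 to 0.85. Among the 76 with a replication product name, 38 had a higher estimate in golden and 38 in greenish grey, with a median of 0.003. The median standard error was 0.47 on the log2 scale, and 0.26 with the replicate block.

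By complex, the median log2 fold change was 0.14 for MCM, -0.14 for the polymerases, 0.00 for RFC, 0.08 for RPA and -0.09 for the others. The MCM estimates were higher in golden for 13 of 17 genes, yet their standard errors ran from 0.34 to 1.59, and the sign of their median turned to -0.01 when log2(FPKM + 1) was analysed and ran from -0.22 to 0.59 when single libraries were left out. The polymerase estimates were lower in golden for 16 of 23 genes, and none had an unadjusted p under 0.05. On scaled counts, 3 genes had all golden libraries above all greenish grey libraries and 0 the reverse, against 4.99% and 5.08% of all genes. This turned round in FPKM, which carries no correction for the make-up of a library: there 0 genes lay wholly above and 2, both ribonuclease H1 genes, wholly below, against 2.37% and 7.9% of all genes.

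**Figure D1:**
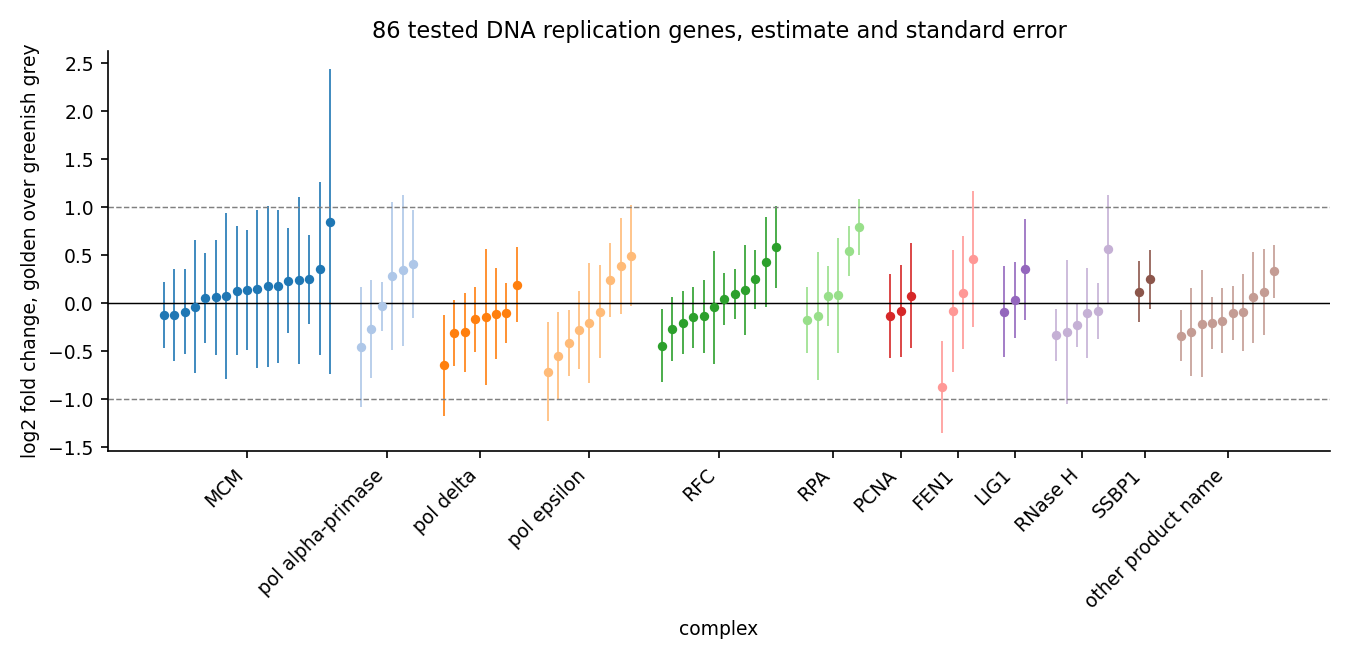
Each point is 1 of the 86 tested genes, grouped by complex on the horizontal axis, with the log2 fold change of golden over greenish grey skin on the vertical axis, bars of 1 standard error and dashed lines at 2-fold. All estimates lie between -0.87 and 0.85, on both sides of 0 in every complex other than SSBP1, which has 2 genes.

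The gene with the smallest p was a copy of RPA1 (LOC113079870, on an unplaced scaffold), the large subunit of RPA that binds single-stranded DNA. Its scaled CPM values (counts relative to the TMM-scaled library size) were 38.4, 51.3 and 38.6 in golden libraries 1, 2 and 3 and 18.3, 31.3 and 24.3 in greenish grey libraries 1, 2 and 3. On this scale the golden libraries all lay above the greenish grey ones, and within each number golden was higher, by 1.07, 0.71 and 0.67 log2 units. In FPKM, at 10.4, 18.3 and 16.0 in golden and 6.01, 12.4 and 10.1 in greenish grey, golden was higher within each number but the colours overlapped. The edgeR log2 fold change was 0.80 with a standard error of 0.29 (unadjusted p = 0.0306, adjusted p = 0.9998). With the replicate number as a block, the unadjusted p was 0.00559 and the adjusted p was 0.264.

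A second RPA1 copy, LOC113114886 on chromosome 15 of assembly ASM336829v1, which all positions refer to, from 6952628 to 6983097, was also without overlap in scaled CPM, though not in FPKM, at 21.1, 26.0 and 17.1 scaled CPM in golden and 12.5, 15.3 and 16.1 in greenish grey. Its log2 fold change was 0.55 with a standard error of 0.26 (edgeR, unadjusted p = 0.0756). The third RPA1 copy, LOC113058502 on chromosome 40, went another way, with 1.06, 4.01 and 6.53 FPKM in golden and 1.52, 5.52 and 4.38 FPKM in greenish grey. Both libraries numbered 1 were the lowest there, the colours overlapped, and the log2 fold change was 0.08 with a standard error of 0.60. The remaining gene without overlap in scaled CPM, again not in FPKM, was an RFC2 copy (LOC113063977), where golden lay at 4.34 to 4.51 and greenish grey at 2.71 to 4.33 scaled CPM, a log2 fold change of 0.25 with a standard error of 0.31.

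The other genes among the 5 smallest p-values all overlapped between colours. A flap endonuclease copy (LOC113115561, chromosome 2), which trims the flaps left by displaced primers, had 0.909, 2.37 and 2.43 FPKM in golden and 4.31, 4.46 and 2.01 FPKM in greenish grey, with a log2 fold change of -0.87 and a standard error of 0.48 (edgeR, unadjusted p = 0.113). A polymerase epsilon subunit 2 copy (LOC113074531) had 0.418, 1.5 and 1.47 FPKM in golden and 1.04, 2.73 and 2.16 FPKM in greenish grey, and its log2 fold change was -0.71 with a standard error of 0.52. For an RFC3 copy (LOC113109955) the values were 2.05, 3.80 and 2.60 FPKM in golden and 1.03, 2.77 and 2.56 FPKM in greenish grey, a log2 fold change of 0.58 with a standard error of 0.43.

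What varied among the replication genes was the library number, in both colours. Libraries of the same number deviated together over all tested genes (correlations of 0.656, 0.258 and 0.682 for numbers 1, 2 and 3). The 135 rows made up 0.0443%, 0.0968% and 0.113% of all counts in golden libraries 1, 2 and 3 and 0.0549%, 0.115% and 0.0916% in greenish grey. Both libraries numbered 1 thus held less replication RNA than any of the other 4. They were the 2 lowest in scaled counts for 53 of the 86 tested genes, 61.6% against 19.7% of all tested genes. By complex this held for 13 of 17 MCM genes, 15 of 23 polymerase genes, 5 of 12 RFC genes and 4 of 6 RPA genes, and for all 3 PCNA, all 3 DNA ligase 1 and all 6 polymerase alpha and primase genes.

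A test of the replicate number with colour in the model was added after these values were seen. By it 12 of 86 replication genes differed between numbers (edgeR, adjusted p under 0.05), 14.0% against 15% of all genes. Of the 12, 8 were MCM genes, 47.1% of the MCM genes tested, and the other 4 were an RPA1 copy, a flap endonuclease copy, ribonuclease H2 subunit B and the THEMIS2-like row. The shares depended on the tool, since DESeq2 called 38 of the 86, 44.2% against 34.5% of all genes, and limma 40, 46.5% against 24.9%. The call rests on few libraries, since each number has 1 library of each colour. With a library left out, its number has only 1, and edgeR lost calls over the whole table, in some of these fits all of them. Such fits cannot say whether the replication genes depend on single libraries more than other genes do. A minimum on the mean also favours genes that are high in some libraries, and 17 of the 86 genes, 8 of them MCM, were under 1 FPKM in both libraries numbered 1.

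Summed over its 22 rows, expression of the MCM helicase was 24.8, 96.1 and 109 FPKM in golden libraries 1, 2 and 3 and 36.4, 116 and 71.8 FPKM in greenish grey libraries 1, 2 and 3. Every MCM sum in number 1 was thus under that of numbers 2 and 3 of either colour. The median log2 difference over the 17 tested genes was 1.90 between numbers 2 and 1 and 1.74 between numbers 3 and 1, where all genes had medians of -0.06 and -0.04. Between numbers 3 and 2 it was -0.37, against 0.01 for all genes. In the contrast of number 3 with number 1, 9 of 17 MCM genes rose at an adjusted p under 0.05, against 12.6% of all genes. The contrast of number 2 with number 1 gave 0 such genes in the whole table (edgeR), with 14 of 17 MCM genes and 11.7% of all genes higher at an unadjusted p under 0.05. Of the 17 MCM genes, 8 were under 1 FPKM in both libraries numbered 1. These met the minimum only through numbers 2 and 3, so for them the contrasts with number 1 are partly built in.

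MCM2 had 4 tested copies. LOC113040376 on chromosome 22, from 31466617 to 31474590, was the highest of them, at 0.909, 7.32 and 8.33 FPKM in golden libraries 1, 2 and 3 and 1.18, 9.0 and 5.22 FPKM in greenish grey libraries 1, 2 and 3. It was 2.64 and 2.22 higher on the log2 scale in numbers 2 and 3 than in number 1, with standard errors of 0.30 and 0.30 (edgeR, adjusted p = 0.0246 over the numbers). LOC113039403, on the same chromosome, read 0.454, 2.84 and 3.30 FPKM in golden and 0.437, 3.38 and 2.36 FPKM in greenish grey. LOC113080549 read 0.588, 2.54 and 3.19 FPKM in golden and 0.948, 3.47 and 1.91 FPKM in greenish grey. LOC113100957 read 0.347, 1.90 and 2.59 FPKM in golden and 0.582, 2.51 and 2.11 FPKM in greenish grey. All 4 copies were lowest in both libraries numbered 1, and 3 passed the adjusted threshold over the numbers, LOC113080549 missing it at adjusted p = 0.0701 (edgeR).

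MCM3 had 2 tested copies, on chromosomes 20 and 45. The one on chromosome 20 (LOC113120842, 9813478 to 9819945) had 0.542, 4.97 and 7.38 FPKM in golden and 0.760, 5.97 and 3.70 FPKM in greenish grey. Its partner LOC113062942 had 0.379, 3.18 and 3.46 FPKM in golden and 0.481, 4.02 and 1.72 FPKM in greenish grey. Each was over 2 log2 units higher in numbers 2 and 3 than in number 1, by 2.07 to 2.74 (edgeR, adjusted p = 0.0289 and 0.0323). Another MCM3 row, LOC113062688, is annotated as a pseudogene and stayed under the minimum, with 0, 63 and 158 counts in golden and 19, 112 and 97 in greenish grey.

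Among the MCM4 copies, LOC113092828 was the highest, with 3.06, 8.44 and 8.08 FPKM in golden and 2.80, 9.63 and 5.40 FPKM in greenish grey (edgeR, adjusted p = 0.0510 over the numbers). LOC113042576 on chromosome 24 followed with 1.66, 5.62 and 9.14 FPKM in golden and 1.66, 7.66 and 6.38 FPKM in greenish grey (edgeR, adjusted p = 0.0335). The copy nearest to silence in number 1 was LOC113076323, at 0.171, 4.67 and 4.75 FPKM in golden and 0, 3.09 and 2.55 FPKM in greenish grey. It had 15 and 0 counts in golden 1 and greenish grey 1 and 274 in greenish grey 3, so no fold between the numbers is given for it. Its estimate between colours, 0.85 with a standard error of 1.59, is the upper end of the range given above. It was also among the 8 MCM genes called over the numbers (edgeR, adjusted p = 0.0422).

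MCM5 was represented by LOC113046685 on chromosome 28, from 8364660 to 8371289, with 1.90, 12.8 and 14.9 FPKM in golden and 4.09, 14.5 and 9.53 FPKM in greenish grey. The second MCM5 gene, LOC113051849 on chromosome 3, had 1.28, 5.16 and 5.62 FPKM in golden and 1.72, 5.71 and 3.39 FPKM in greenish grey. Both were lowest in number 1, with adjusted p-values of 0.0519 and 0.0545 over the numbers (edgeR). MCM6 copies did likewise. LOC113093387 on chromosome 6, from 7300742 to 7308018, had 0.596, 4.89 and 5.57 FPKM in golden and 0.742, 6.38 and 3.90 FPKM in greenish grey, a difference of 2.73 and 2.34 log2 units from number 1 (edgeR, adjusted p = 0.0242, the smallest among the replication genes). LOC113050797 on chromosome 31 had 0.228, 2.39 and 3.83 FPKM in golden and 0.816, 3.01 and 2.11 FPKM in greenish grey (edgeR, adjusted p = 0.0927).

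None of the 4 tested MCM7 genes passed the test over the numbers. LOC113058110 on chromosome 39, from 8902139 to 8910278, had the highest level of all MCM genes, at 8.10, 15.6 and 13.7 FPKM in golden and 10.9, 22.1 and 11.3 FPKM in greenish grey. Number 3 stood at -0.06 log2 units from number 1 with a standard error of 0.25 (edgeR, adjusted p = 0.137). Of the mcm7-B copies, LOC113114374 on chromosome 14 had 1.93, 6.81 and 7.50 FPKM in golden and 4.35, 8.05 and 3.80 FPKM in greenish grey. LOC113088646, an annotated pseudogene, had 1.45, 3.28 and 4.89 FPKM in golden and 2.56, 6.06 and 2.31 FPKM in greenish grey. LOC113085488 did not follow the numbers, at 0.820, 1.66 and 1.30 FPKM in golden and 1.76, 0.821 and 1.71 FPKM in greenish grey. In scaled CPM, the 4 tested MCM7 genes were the MCM genes in which the libraries numbered 1 were not both lowest, although in FPKM they still were for LOC113058110. Near-identical copies can share reads in counting, so levels of single copies are uncertain, pseudogenes included.

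**Figure D2:**
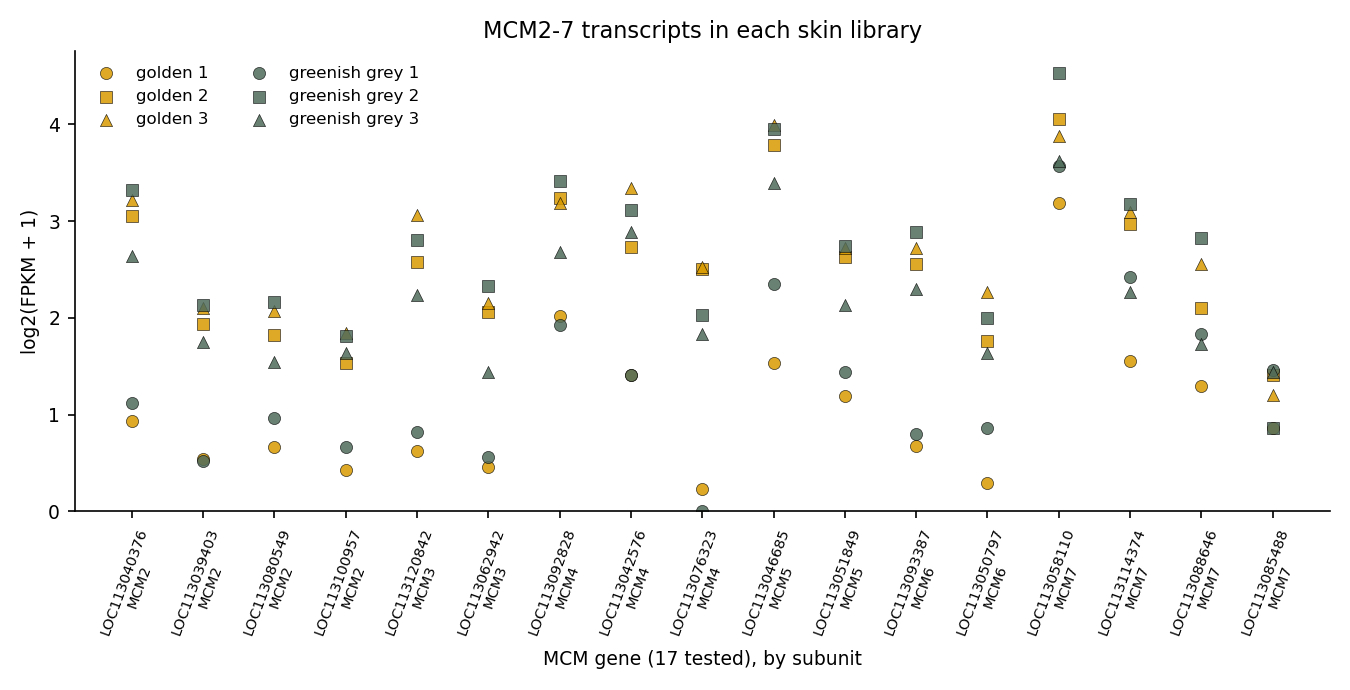
Each column is 1 of the 17 tested MCM genes, ordered by subunit, with log2(FPKM + 1) on the vertical axis, colour for skin colour and marker shape for the library number. The circles (number 1) sit below the squares and triangles for MCM2 to MCM6, while for the MCM7 genes on the right they overlap with the other libraries, other than for LOC113058110, and LOC113076323 reads 0 in greenish grey 1.

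PCNA, the clamp that tethers polymerases and is a common marker of cycling cells, had 3 tested genes. LOC113110310 on chromosome 10, from 20709878 to 20712312, had 5.79, 23.6 and 35.8 FPKM in golden libraries 1, 2 and 3 and 11.5, 29.8 and 22.4 FPKM in greenish grey libraries 1, 2 and 3. LOC113054603 on chromosome 35 had 4.0, 10.4 and 15.8 FPKM in golden and 6.28, 15.3 and 13.4 FPKM in greenish grey. LOC113054538, on the same chromosome, had 3.12, 10.6 and 17.2 FPKM in golden and 7.28, 14.0 and 12.6 FPKM in greenish grey. All 3 were lowest in both libraries numbered 1, with adjusted p-values of 0.0709 to 0.143 over the numbers (edgeR), and their log2 fold changes between colours were 0.08, -0.13 and -0.08 with standard errors of 0.43 to 0.54.

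RFC, the loader of that clamp, varied less. Its summed expression was 26.4, 44.7 and 50.5 FPKM in golden and 27.6, 51.6 and 51.6 FPKM in greenish grey, and the median log2 difference from number 1 was 0.47 in number 2 and 0.35 in number 3. The large subunit RFC1 (LOC113044266) had 2.84, 2.96 and 5.27 FPKM in golden and 2.96, 3.70 and 5.06 FPKM in greenish grey, with number 3 the highest in each colour. The highest RFC gene was an RFC2 copy (LOC113038574, chromosome 21), at 5.74, 10.9 and 9.57 FPKM in golden and 6.44, 9.86 and 10.5 FPKM in greenish grey. Of the small subunits, RFC3 (LOC113109964) ran from 2.09 to 6.62 FPKM, RFC4 (LOC113111287) from 2.51 to 6.22 FPKM and RFC5 (LOC113068101) from 1.67 to 4.66 FPKM. None of the 12 RFC genes passed the test over the numbers, and 1 had an unadjusted p under 0.05 by edgeR, against 36.6% of all genes. An RFC3 copy, LOC113054443, came nearest (edgeR, adjusted p = 0.0541).

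Polymerase alpha and primase genes, which start each strand, had a median log2 difference of 1.33 between numbers 2 and 1 and 1.37 between numbers 3 and 1, the delta genes 0.64 and 0.53, and the epsilon genes 0.97 and 0.81. None of the 23 genes passed the test over the numbers, with 9 at an unadjusted p under 0.05 by edgeR, which 36.6% of all genes reached. The primase small subunit (LOC113041181), the catalytic part of primase, had 0.329, 1.94 and 3.92 FPKM in golden and 0.607, 2.63 and 1.75 FPKM in greenish grey. Its partner, the primase large subunit (LOC113057022), had 0.889, 1.98 and 3.0 FPKM in golden and 0.957, 3.23 and 3.46 FPKM in greenish grey. In both, the libraries numbered 1 were the lowest of the 6.

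The B subunit of polymerase alpha (LOC113069855) was steadier, at 2.67, 5.27 and 5.61 FPKM in golden and 4.10, 5.21 and 5.51 FPKM in greenish grey. Among the delta genes, the catalytic subunit was higher in LOC113043456, at 2.11, 5.91 and 7.01 FPKM in golden and 2.84, 4.59 and 6.54 FPKM in greenish grey, than in pold1, at 0.198 to 2.0 FPKM. The accessory gene pold2 ran from 1.15 to 4.74 FPKM, and polymerase delta subunit 3 (LOC113038636) from 2.43 to 8.46 FPKM. Subunit 4 of polymerase delta (LOC113073280, chromosome 1) did not follow the numbers, with 19.6, 17.1 and 15.8 FPKM in golden and 20.9, 27.9 and 18.3 FPKM in greenish grey.

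The catalytic subunit of polymerase epsilon, pole, had 0.620, 2.56 and 3.02 FPKM in golden and 0.907, 1.90 and 2.16 FPKM in greenish grey, lowest in both libraries numbered 1. Epsilon subunit 2 (LOC113074414) ran from 1.52 to 7.68 FPKM. The small histone-fold subunits were higher, with subunit 3 (LOC113075555) at 3.07 to 10.8 FPKM and subunit 4 (LOC113055144) at 4.73 to 15.6 FPKM. Epsilon subunit 4 was highest in greenish grey 2 and lowest in golden 1.

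Of the RPA genes besides the RPA1 copies, rpa2, the middle subunit, had 7.29, 15.4 and 19.9 FPKM in golden and 9.56, 17.7 and 15.8 FPKM in greenish grey. It lies on chromosome 16 from 22259105 to 22277942 and overlaps the THEMIS2-like row LOC113116544 on the other strand, which carries the same pathway annotation. The sources used here do not say whether reads were counted by strand, so reads of the shared stretch may have gone to either. The smallest subunit, RPA3 (LOC113090826), had 1.13, 3.11 and 6.68 FPKM in golden and 1.41, 6.10 and 4.98 FPKM in greenish grey. Among the RPA1 copies, LOC113058502 differed between the numbers (edgeR, adjusted p = 0.0472), while LOC113079870 and LOC113114886 had adjusted p-values of 0.210 and 0.623.

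Primer removal and nick sealing were mixed. Flap endonuclease 1 (LOC113042331, chromosome 24) had 1.11, 5.14 and 8.53 FPKM in golden and 2.26, 7.44 and 6.49 FPKM in greenish grey, and passed the test over the numbers (edgeR, adjusted p = 0.0498). The copy with the higher level, LOC113045781, had 2.72, 9.44 and 8.73 FPKM in golden and 2.16, 7.51 and 11.5 FPKM in greenish grey. DNA ligase 1 (LOC113120958) had 1.96, 3.71 and 4.54 FPKM in golden and 1.70, 5.24 and 3.94 FPKM in greenish grey, again lowest in number 1.

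Ribonuclease H1, which removes RNA from RNA and DNA hybrids and also acts in mitochondria, had 2 tested genes, with rnaseh1 at 7.31 to 10.1 FPKM in golden and 11.1 to 12.1 FPKM in greenish grey, and LOC113120858 at 3.24 to 4.27 FPKM and 4.68 to 5.6 FPKM. In FPKM neither overlapped between colours, and both were lower in golden within each number. In scaled CPM both overlapped, and the log2 fold changes were -0.22 and -0.32 with standard errors of 0.23 and 0.27. From number 1 to number 3, 69 of the 86 tested genes rose, against 12764 of all 26421 genes. In that contrast 6619 of all genes had an adjusted p under 0.05 (edgeR), of which 3333 rose. Of the 86 genes 23 did, and 20 of these rose. Ribonuclease H2 subunit B (LOC113053197, chromosome 34) was among those that fell, at 6.52, 6.71 and 3.26 FPKM in golden and 5.48, 4.84 and 2.23 FPKM in greenish grey. It fell by 1.62 log2 units from number 1 to number 3 (edgeR, adjusted p = 0.0353 over the numbers). In scaled CPM it was higher in golden within each number, by 0.525, 0.62 and 0.525 log2 units. Its log2 fold change between colours was 0.57 with a standard error of 0.56 (edgeR, unadjusted p = 0.346). With the replicate block, the unadjusted p was 0.0365 and the adjusted p was 0.366 (edgeR). Subunit A (LOC113043986) ran from 2.04 to 4.47 FPKM, and subunit C (LOC113113890) from 0.547 to 6.45 FPKM. The mitochondrial single-stranded DNA-binding protein, which serves mitochondrial DNA, had 2 tested genes, LOC113064389 and LOC113047865. Their estimates from number 1 to number 3 had opposite signs, but neither passed the test over the numbers (edgeR, adjusted p = 0.213 and 0.325). LOC113064389 had 9.55, 8.64 and 7.57 FPKM in golden and 7.98, 8.72 and 7.89 FPKM in greenish grey, and in scaled CPM it was highest in golden 1, at 22.7, and lowest in golden 3, at 11.8. LOC113047865 had 2.87, 6.43 and 6.47 FPKM in golden and 3.94, 6.52 and 5.14 FPKM in greenish grey, lowest in number 1.

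The 10 tested rows with another product name had a median log2 difference of 0.21 between numbers 2 and 1 and 0.13 between numbers 3 and 1, beside 0.94 and 0.75 for the 76 genes with a replication product. The MYG1 gene had 15.3, 33.6 and 38.6 FPKM in golden and 16.4, 50.2 and 34.7 FPKM in greenish grey, lowest in number 1. A RUFY2-like row, LOC113057320, read 3.54, 1.71 and 2.38 FPKM in golden and 3.15, 2.41 and 2.51 FPKM in greenish grey, highest in number 1. It lies 24524 bases from dna2, and the other RUFY2-like row lies 8960 bases from the second DNA2 gene, both on the opposite strand to that neighbour and with the pathway annotation of DNA2.

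Goldfish and crucian carp carry duplicated genomes, and 35 of the 39 replication product names had 2 or more rows. For 29 of them at least 2 rows were tested, and the copy with the higher mean was the higher one in all 6 libraries for 21. The lead was 2.50 times for MCM2 (LOC113040376 over LOC113039403), 3.56 times for the polymerase delta catalytic subunit and 3.16 times for its subunit 3. Copies close in level changed places, as for epsilon subunit 3 (6.85 and 6.73 FPKM, the order held in 3 of 6 libraries) and RPA3 (3.90 and 3.89 FPKM, in 2 of 6). The leading copy was picked by its mean over these same 6 libraries, so this agreement is partly built in. The order among copies was not tested otherwise.

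Genes of replication and division that the pathway leaves out were read from a list of 59 tested genes. None of them, and no gene of the whole table, differed between colours at an adjusted p under 0.05 (edgeR). At an unadjusted p under 0.05 there were 0 genes of the list, against 4.4% of all genes (edgeR). The median log2 fold change of the list was -0.06. Origin recognition genes (6 tested) and origin firing genes (6 tested), which act before and at the start of unwinding, had median log2 differences from number 1 of 1.34 and 1.11 in number 2 and 1.36 and 1.15 in number 3. The 5 tested genes of the MCM loading list, which holds geminin copies beside CDC6 and CDT1, stood at 0.75 and 0.17. The 3 GINS genes stood at 0.98 and 0.69, and the 13 nucleotide supply genes at 0.46 and 0.28. Of the genes in those lists and the 3 fork protection genes, 36 in all, 4 passed the test over the numbers, 11.1% against 15% of all genes. Copies of ribonucleotide reductase, the enzyme that makes deoxynucleotides, were 3 of the 4.

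Mitosis genes parted from the MCM genes in number 2. Of 23 tested, 15 differed between the numbers (edgeR, adjusted p under 0.05), 65.2% against 15% of all genes. With a library left out, edgeR lost calls among the mitosis genes as over the whole table, in some of these fits all of them. The minimum on the mean favours genes high in some libraries here too. An aurora kinase B copy, LOC113102432, was tested with 0.130 and 0.520 FPKM in golden 1 and greenish grey 1. Under the filterByExpr filter, 11 of 31 mitosis genes differed between the numbers, 35.5% against 5.45% of all genes. The median log2 difference of the 23 genes was 0.35 between numbers 2 and 1, 2.01 between numbers 3 and 1 and 1.61 between numbers 3 and 2. Ki-67 (LOC113056312), a nuclear protein of dividing cells, had 0.847, 1.36 and 6.81 FPKM in golden and 1.31, 1.76 and 5.42 FPKM in greenish grey. Topoisomerase 2-alpha (LOC113111881), which untangles replicated chromosomes, had 0.753, 1.68 and 7.04 FPKM in golden and 1.19, 1.62 and 6.72 FPKM in greenish grey. Both were high in number 3 alone, where MCM2 to MCM6 and PCNA were high in numbers 2 and 3.

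CDK1, the kinase that drives entry into mitosis, showed both patterns among its copies. LOC113059675 had 0.755, 3.92 and 6.49 FPKM in golden and 0.909, 5.90 and 5.69 FPKM in greenish grey, like the MCM genes. LOC113094561 had 1.12, 1.81 and 9.93 FPKM in golden and 2.12, 2.48 and 8.74 FPKM in greenish grey, like Ki-67. Ribonucleotide reductase M2 varied by copy as well, with LOC113120871 at 1.72, 4.23 and 8.97 FPKM in golden and 2.22, 4.97 and 7.97 FPKM in greenish grey. LOC113063116 was high in number 3, at 1.16, 1.40 and 6.40 FPKM in golden and 1.18, 2.23 and 4.69 FPKM in greenish grey. LOC113119456 did not follow the numbers, at 3.63, 4.61 and 3.93 FPKM in golden and 3.92, 4.02 and 3.73 FPKM in greenish grey. No direct test of MCM against mitosis genes was run.

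**Figure D3:**
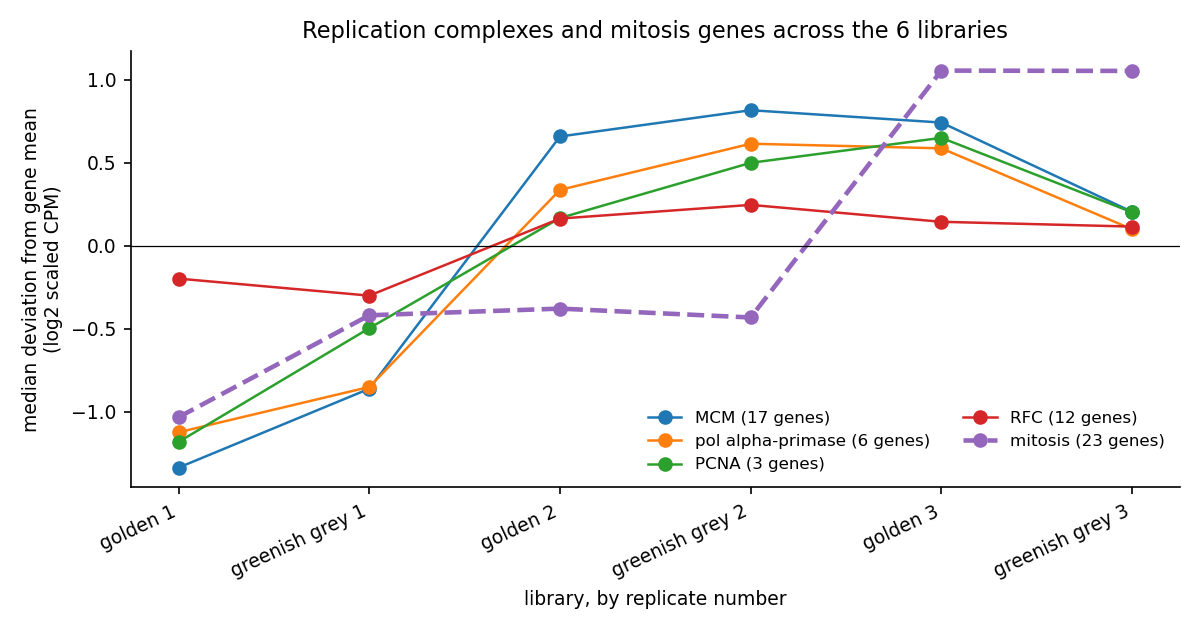
Lines join, for each group of genes, the median deviation of its tested genes from their own mean over the 6 libraries (log2 of scaled CPM, vertical axis), with libraries ordered by replicate number. MCM, polymerase alpha with primase, PCNA and RFC are below 0 in both libraries numbered 1 and above 0 in the other 4, and mitosis genes are above 0 only in number 3.

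Of the marker lists, that of the epidermis moved with the replication genes. The lymphocyte, endothelium and melanophore lists did not have both libraries numbered 1 lowest. The epidermis share varied 6.26-fold between the libraries, the PCNA share 5.36-fold and the MCM share 4.89-fold, with both libraries numbered 1 lowest in each. Set against 1000 counts of epidermis markers, PCNA stood at 4.32, 4.21 and 3.70 counts in golden libraries 1, 2 and 3 and 4.31, 3.69 and 3.61 in greenish grey libraries 1, 2 and 3, a range of 1.2-fold. MCM stood at 14.8, 16.6 and 10.9 in golden and 11.1, 13.5 and 9.84 in greenish grey, a range of 1.68-fold. By that measure PCNA in number 1 was above the other libraries, and MCM in number 1 lay below number 2 and above number 3 of its colour. Over all 135 rows the range was hardly narrower than in their share of counts, 2.45-fold against 2.59-fold, and the order turned round, with 100.2, 61.6 and 41.0 in golden and 63.4, 48.2 and 46.2 in greenish grey. For the 97 rows with a replication product name it narrowed more, to 2.218-fold from 2.825-fold in their share of counts.

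The measure depends on the markers. With the 16 epidermis markers that are not keratins as the base, the range was 1.81-fold for PCNA and 2.25-fold for MCM, and both were lower in number 1 than in number 2 of each colour. RFC went the other way, from a range of 1.94-fold in its share of counts to 3.24-fold per epidermis count. Mitosis genes stood at 9.56, 5.49 and 11.1 counts per 1000 epidermis counts in golden and 8.59, 4.45 and 14.5 in greenish grey, lowest in number 2 of each colour. Muscle, erythrocyte and dermal fibroblast markers were higher in the libraries numbered 1 of each colour, with fibroblast markers at 0.323%, 0.151% and 0.118% of the counts in golden and 0.871%, 0.269% and 0.183% in greenish grey, and erythrocytes taking 1.78%, 0.969% and 0.195% of the counts in golden and 2.30%, 0.213% and 0.112% in greenish grey. The part of these tissues in the differences between numbers was not tested.

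**Figure D4:**
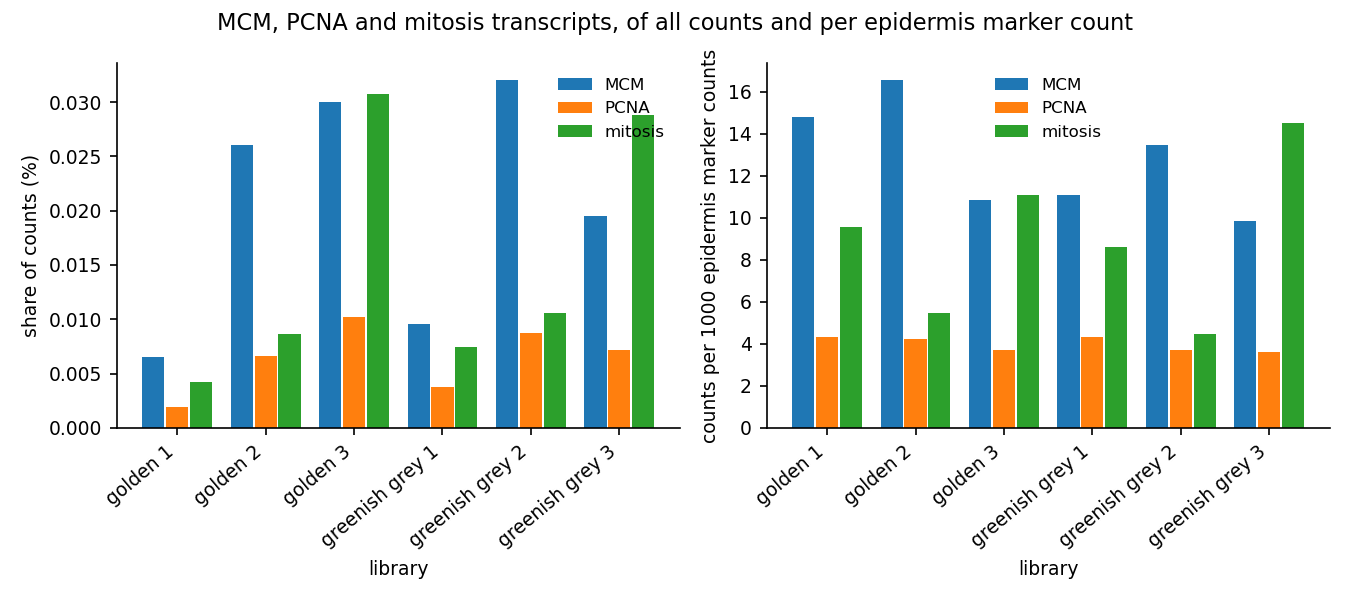
Bars give the summed counts of MCM, PCNA and mitosis genes in each library, on the left as a percentage of all counts and on the right per 1000 counts of epidermis markers. On the left golden 1 and greenish grey 1 are the lowest for each group, and on the right PCNA lies between 3.61 and 4.32 in all 6 libraries.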

How the data were processed

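Per the labels, libraries were made from total RNA of skin with a SMARTER mRNA-seq kit. The deposited table holds raw counts and FPKM values per gene. The aligner and counter are not given in the sources used here. The mouse builds in the labels cannot be those of the table, whose gene starts equal those of the RefSeq goldfish annotation ASM336829v1 for all 75749 gene IDs found in it. All 135 members matched that annotation. The authors wrote 0.0001 FPKM where a count was 0, and this was set to 0.

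Counts were tested with edgeR 4.0.16 in R 4.3.3 (quasi-likelihood test, TMM factors, two-sided, with totals of the whole table as library sizes) where the mean reached 1 FPKM, golden over greenish grey, without a block, and p-values were adjusted over 26421 genes (Benjamini-Hochberg). Standard errors are the log2 fold change over the root of F. Same-numbered libraries correlated in all 3 pairs (0.656, 0.258 and 0.682, at most 0.0644 for other pairs), so a fit with the replicate block was run beside it. Deviations were taken from the mean of each colour, so positive values in same-numbered pairs push those of the other pairs down. DESeq2 1.42.0, limma 3.58.1 on log2(FPKM + 1) and log2(FPKM + 0.1), DESeq2 size factors, scaling without muscle genes, other filters and leaving out each library were alternatives. Overlap between colours was also read in FPKM, chosen after the values were seen. The script was tested on simulated data. Pairs of libraries had identical counts in at most 0.458% of tested genes.

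Members and lists were chosen with earlier results of these data known. Named were all tested MCM and PCNA genes, the highest copy of each other subunit, the 5 members with the smallest p and the Ki-67, TOP2A, CDK1 and RRM2 copies, shortened to examples. RFC2 copy LOC113063977, second copies of ribonuclease H1 and SSBP1, the third RPA1 copy, the untested rows, the genes that passed the number test and the rows with another product name were singled out after their values were seen. Marker and companion lists match symbols or product names, leaving out interacting and domain-containing proteins. Sequences of promoters and proteins were not analysed here.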

Additional observations from a re-analysis of the deposited data

How the results depend on the processing

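The colour comparison gave 0 replication genes at the adjusted threshold under every alternative run. The whole table had 0 genes there as well in every run other than DESeq2 and the replicate block. In those other runs the 0 for replication genes was bound to follow and says nothing about these genes. With a library left out, 0 to 1 replication gene passed the 2-fold threshold: LOC113079870 (log2 1.01) without greenish grey 2 and LOC113115561 (log2 -1.20) without greenish grey 3. With the replicate block, 1335 genes of the whole table passed the 2-fold threshold, 1 passed the adjusted threshold, and no replication gene passed either, while 2 had an unadjusted p under 0.05 against 13% of all genes. The count of all genes past 2-fold was 731 in the report's fit, 1254 with the filterByExpr filter, 1642 with no filter and 494 to 1422 with a library left out (1116 without golden 1, 1422 without golden 3). DESeq2 called 205 genes of the whole table at the adjusted threshold. The median log2 fold change of the replication genes ran from -0.21 to 0.23 over left-out libraries. Of 882 pairs of a named gene and an alternative, 149 had another sign. No named gene passed the 2-fold threshold in the report's fit, and 880 pairs stayed that way while 2 came to pass it.

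The test over replicate numbers was more sensitive. It called 7 replication genes and 2223 genes in all with the filterByExpr filter, 40 replication and 13 MCM genes and 6581 in all with limma on log2(FPKM + 1), and 38, 13 and 9119 with DESeq2. With a library left out, the counts ran from 0 to 8 for replication genes, 0 to 7 for MCM, 0 to 13 for mitosis genes and 0 to 3828 for all genes. They were 0 for each of these without golden 1, golden 3 or greenish grey 3. Without greenish grey 1 there were 174 genes in all and 0 replication genes. Such fits have fewer samples for the spread, and the cause of the lost calls was not tested otherwise. The minimum of 1 FPKM left 49 of the 135 rows untested, of which 16 had no count in any library, and the filterByExpr filter would test 113.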
